A study of Mus musculus with 2 samples.

Results

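Contractile smooth muscle cells are the muscle cells of the arterial media. They were selected from 2 droplet-based single-cell RNA libraries of mouse aorta, 1 from Kif13b-/- and 1 from wild-type (WT) mice. A barcode was taken as a contractile smooth muscle cell when it met 3 conditions at 2000 or more UMIs (unique molecular identifiers, each counting 1 captured transcript) and at most 20% mitochondrial UMIs. Acta2, Tagln and Myh11 together had to reach 20000 CPM (UMIs per 1000000 UMIs of the barcode), Dcn and Lum together had to stay under 2000 CPM, and C1qa, C1qb and C1qc together under 500 CPM. This gave 1998 barcodes out of 28892 in all, of which 16857 passed the filters on UMIs and mitochondrial share. In the Kif13b-/- library 556 of 5859 barcodes that passed were contractile cells (9.49%, 95% interval 8.75 to 10.27), and in the WT library 1442 of 10998 (13.1%, 12.5 to 13.8).

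The library titled Kif13b-/- has a genotype label that reads knock down, and the tissue of both is given as aorta. Kif13b encodes a kinesin motor, and the title of the series concerns its part in macrophage uptake of dying cells through the receptor MERTK in atherosclerosis. The sources used here state no strain, age, sex, diet, further allele or number of pooled animals. Each genotype rests on a single library, so no difference between them could be tested. The 95% intervals reflect counting error alone, of UMIs for levels and ratios and of cells for shares of cells. An effect of genotype and any other difference between the libraries cannot be told apart.

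A contractile smooth muscle cell holds actin and smooth muscle myosin filaments and shortens when calcium rises and myosin light chain kinase is activated. Its contractile genes are driven by serum response factor (SRF) with its partner myocardin, which act through a DNA element called the CArG box. In a diseased artery these cells can lose contractile genes and take on matrix-producing, fibroblast-like or cartilage-like programmes, which is called modulation.

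The contractile cells of the Kif13b-/- library were deeper. Their median was 12061.5 UMIs and 3599.5 genes, against 6871 UMIs and 2591 genes in the WT library, and they held 6857504 and 10126992 UMIs in all. Median mitochondrial shares were 7.74% in Kif13b-/- and 6.54% in WT cells. No barcode of the contractile cells was shared between the libraries, out of 52 shared among all barcodes. The libraries listed 7766 Kif13b-/- and 21126 WT barcodes, more than the 6000 cells loaded for each. After the filters on UMIs and mitochondrial share 5859 and 10998 were left, so the WT number still exceeded the cells loaded. Whether all of these barcodes are cells was not tested, which limits the shares of contractile cells given above. Because depth decides whether a rare transcript is seen, shares of cells with a UMI are given after each cell was thinned to 2000 UMIs. Summed levels are given on the CPM scale, with depth-matched values beside some of them.

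The selected cells carried contractile markers that the gate had not used. Cnn1, which encodes the actin-binding protein calponin, stood at 1071 CPM (1047 to 1096) in Kif13b-/- and 1006 CPM (986 to 1025) in WT cells. Lmod1, the actin filament nucleator leiomodin, stood at 774 CPM (753 to 795) in Kif13b-/- and 845 CPM (827 to 863) in WT cells. In macrophages, gated on C1qa, C1qb and C1qc, Cnn1 was at 4.99 and 6.94 CPM and Lmod1 at 3.17 and 5.46 CPM in the Kif13b-/- and WT libraries. A Cnn1 UMI was present in 99.5% of Kif13b-/- contractile cells, and a Lmod1 UMI in 97.7%. Myocd, the myocardin gene, was at 456 and 397 CPM in the contractile cells of the 2 libraries, against 3.17 and 8.41 CPM in macrophages. In fibroblasts Myocd was at 56.3 and 63.9 CPM. Modulated stromal cells, gated on Crabp2, Cst6 and Grem1, numbered 56 Kif13b-/- and 73 WT barcodes. In them Myocd was at 50.8 and 120.5 CPM, Cnn1 at 34.6 and 25.1 CPM and Lmod1 at 22.7 and 64.4 CPM. Pln, the remaining marker of the type, was seen in only 21.2% of Kif13b-/- and 31.3% of WT cells without thinning, so it does not mark all of them.

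Of the genes used by the gate, Acta2 (smooth muscle actin) stood at 14360 and 14558 CPM, Tagln (transgelin) at 12715 and 14268 CPM and Myh11 (smooth muscle myosin heavy chain) at 4059 and 4697 CPM in Kif13b-/- and WT cells. Barcodes just below the threshold, at 18000 to 20000 CPM, numbered 45 in the Kif13b-/- and 106 in the WT library, and those just above, at 20000 to 22000 CPM, 52 and 114. In the Kif13b-/- library Cnn1 was at 680 CPM just outside and 812 CPM just inside, and in the WT library at 615 and 729 CPM. The contractile condition alone was met by 637 Kif13b-/- and 1639 WT barcodes. Too much Dcn and Lum removed 60 and 166 of them, too much C1q 35 and 47, and 14 and 16 of these failed both.

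Markers of other cell types were mostly low. The gate itself had limited C1qa, C1qb and C1qc of the macrophage list and Dcn and Lum of the fibroblast list. The sums of these lists are therefore partly set by the selection. Cardiac markers summed to 37.2 CPM in Kif13b-/- and 56.6 CPM in WT cells, with Myl7 and Nppa at 0 in both. Macrophage markers summed to 88.1 CPM in Kif13b-/- and 45.3 CPM in WT cells, neutrophil markers to 6.42 CPM in Kif13b-/- and 51.2 CPM in WT cells, and endothelial markers to 95.2 CPM in Kif13b-/- and 87.7 CPM in WT cells. Fibroblast markers summed to 1799 CPM in Kif13b-/- and 1632 CPM in WT cells, led by Col1a2, a collagen gene that muscle cells also express. The pericyte list summed to 5448 CPM in Kif13b-/- and 4848 CPM in WT cells, of which Rgs5, a regulator of G-protein signalling, made up 4810 CPM in Kif13b-/- and 4119 CPM in WT cells. In macrophages Rgs5 was at 10.2 CPM in the Kif13b-/- and 26.5 CPM in the WT library, and in fibroblasts at 78.9 and 205 CPM.

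To show the CArG box, the 250 bases before the RefSeq gene start are printed for chosen genes. They are a gate gene (Acta2), a myosin light chain gene (Myl9) and a marker (Lmod1). The genes at the 2 ends of the variation described below, Pln and Tafa1, are printed too. The build is GRCm38.p6, which corresponds to mm10. Capitals mark CArG boxes with at most 1 base off the consensus, found by a search of the printed strand. The element is palindromic, so the other strand holds the same boxes. The windows are chr19:34255374-34255623 on the minus strand for Acta2, chr2:156775214-156775463 on the plus strand for Myl9, chr1:135324563-135324812 on the plus strand for Lmod1, chr10:53337436-53337685 on the plus strand for Pln and chr6:96112904-96113153 on the plus strand for Tafa1.
Acta2: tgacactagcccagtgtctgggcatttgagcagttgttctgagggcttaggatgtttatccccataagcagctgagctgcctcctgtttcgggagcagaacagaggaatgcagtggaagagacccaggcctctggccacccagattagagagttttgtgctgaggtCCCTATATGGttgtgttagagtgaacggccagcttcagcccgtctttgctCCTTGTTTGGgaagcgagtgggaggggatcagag
Myl9: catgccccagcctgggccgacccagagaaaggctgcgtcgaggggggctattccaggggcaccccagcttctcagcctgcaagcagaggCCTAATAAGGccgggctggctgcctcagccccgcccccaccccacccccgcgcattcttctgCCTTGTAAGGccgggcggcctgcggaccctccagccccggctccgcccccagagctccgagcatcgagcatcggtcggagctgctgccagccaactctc
Lmod1: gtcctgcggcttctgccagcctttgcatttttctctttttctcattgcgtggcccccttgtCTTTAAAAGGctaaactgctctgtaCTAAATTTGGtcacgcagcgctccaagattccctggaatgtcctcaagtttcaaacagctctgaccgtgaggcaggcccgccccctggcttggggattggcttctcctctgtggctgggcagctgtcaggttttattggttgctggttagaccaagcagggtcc
Pln: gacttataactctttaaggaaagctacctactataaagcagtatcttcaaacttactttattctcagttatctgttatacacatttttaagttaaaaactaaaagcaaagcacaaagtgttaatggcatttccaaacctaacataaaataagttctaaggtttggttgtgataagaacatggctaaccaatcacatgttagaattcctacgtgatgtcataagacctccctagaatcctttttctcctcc
Tafa1: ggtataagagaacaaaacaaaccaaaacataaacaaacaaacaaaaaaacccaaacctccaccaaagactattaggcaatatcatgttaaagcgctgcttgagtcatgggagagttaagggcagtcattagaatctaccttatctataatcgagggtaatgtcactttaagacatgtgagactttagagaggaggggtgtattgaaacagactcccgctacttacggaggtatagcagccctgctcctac
Myl9 holds 1 box that meets the consensus and 1 that is 1 base off, whereas the 2 boxes of Acta2, which start 84 and 34 bases before the gene start, and the 2 of Lmod1 are each 1 base off. Neither Pln nor Tafa1 holds one in this window. The marker Cnn1, whose window is not printed, holds none either. The other gate genes, Tagln and Myh11, had no promoter among those searched. Among 32851 promoters of the same length 1.47% hold a consensus box and 18.6% hold one with at most 1 base off. Of the 34 genes of the contractile apparatus list, 29 had a promoter in the table, and 6 (20.7%) and 14 (48.3%) of them hold such boxes. A gene was counted here if any of its promoters held a box. The background counts each promoter separately, so the shares are not in like units. Of the 5 genes that describe the variation, 4 had a promoter and none of these held a box. A match describes letters only and shows no binding.

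The contractile cells were then described along 5 genes, which were chosen for their variation within these cells. Pln (chromosome 10, 53337667 to 53345987, plus strand) encodes phospholamban, which holds back the calcium pump of the sarcoplasmic reticulum. Nrip2 (chromosome 6, 128399296 to 128416427, plus strand) encodes a protein that interacts with nuclear receptors. Hpse2 (chromosome 19, 42786539 to 43388355, minus strand) encodes heparanase 2, a heparan sulphate-binding relative of heparanase. Sorbs2 (chromosome 8, 45507788 to 45827906, plus strand) encodes an adaptor of actin stress fibres, and Tafa1 (chromosome 6, 96113154 to 96657198, plus strand) a secreted chemokine-like protein best known from the brain. Coordinates are those of GENCODE M21 on GRCm38. On the annotation Pln overlaps Cep85l, Nrip2 overlaps Itfg2 and Sorbs2 overlaps Sorbs2os, each on the opposite strand. Pln, Nrip2, Hpse2 and Tafa1 were low in the other gated cell types, and in macrophages Tafa1 stood at 0.23 and 0.63 CPM and Pln at 0.45 and 0.42 CPM in the Kif13b-/- and WT libraries. Sorbs2 was also found outside muscle, at 217 CPM in Kif13b-/- and 222 CPM in WT endothelial cells.

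At 2000 UMIs per cell, Pln was seen in 8.99% of Kif13b-/- contractile cells (6.75 to 11.7) and in 17.8% of WT cells (15.8 to 19.8). Nrip2 was seen in 3.78% of Kif13b-/- (2.35 to 5.72) and 10.5% of WT cells (8.94 to 12.2). Sorbs2 was seen in 39.4% of Kif13b-/- (35.3 to 43.6) and 58.6% of WT cells (56.0 to 61.2). These 3 genes were thus seen in a smaller share of Kif13b-/- than of WT cells at matched depth, beyond counting error. Hpse2 was seen in 4.86% of Kif13b-/- (3.22 to 6.99) and 6.80% of WT cells (5.55 to 8.22), intervals that overlap. Tafa1 went the other way, with 19.8% (16.6 to 23.3) of Kif13b-/- and 15.6% (13.8 to 17.6) of WT cells, intervals that also overlap. In macrophages thinned alike, Pln, Nrip2 and Tafa1 were seen in 0 of 281 Kif13b-/- and 0 of 454 WT barcodes, which allows shares of up to 1.07% and 0.661%, Hpse2 in 0% and 0.44%, and Sorbs2 in 0.71% and 1.54%. The macrophages had medians of 14486 UMIs in the Kif13b-/- and 9031 UMIs in the WT library. Without thinning, the shares of Kif13b-/- and WT contractile cells were 21.2% and 31.3% for Pln, 15.1% and 21.5% for Nrip2, 8.81% and 10.7% for Hpse2, 63.8% and 72.7% for Sorbs2, and 36.7% and 25.4% for Tafa1.

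**Figure D1:**
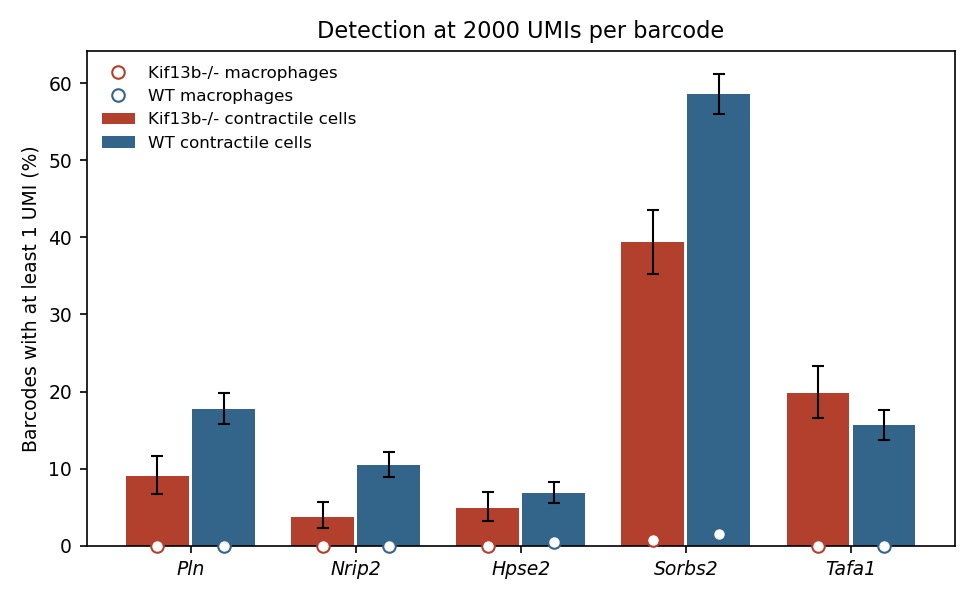
Share of contractile smooth muscle cells with at least 1 UMI of each gene (vertical axis, percent) after thinning to 2000 UMIs, Kif13b-/- (red, n = 556) left of WT (blue, n = 1442), with 95% binomial counting intervals, and the same share in macrophages as open circles. Sorbs2 was seen in 39.4% of Kif13b-/- and 58.6% of WT contractile cells, Tafa1 in 19.8% of Kif13b-/- and 15.6% of WT cells, and the macrophage shares lie between 0 and 1.54%.

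The share of a gene's UMIs in the 10% of cells with the most of them, without thinning, is larger for rarer genes. For Hpse2, seen in 8.81% of Kif13b-/- and 10.7% of WT cells, it was 100% and 98.6%. For Pln the top 10% held 79.3% in Kif13b-/- and 63.2% in WT, for Tafa1 66.9% in Kif13b-/- and 76.9% in WT, and for Sorbs2 53.6% in Kif13b-/- and 41.1% in WT. Cnn1, which nearly every cell expressed, had 25.4% there in Kif13b-/- and 27.2% in WT cells. Kif13b, another gene of low level, had 52.2% and 55.7%, so these shares do not separate rarity from concentration in few cells. At 2000 UMIs the variance over the mean of the counts was 1.14 in both libraries for Kif13b. In Kif13b-/- and WT cells it was 2.80 and 3.29 for Hpse2, 2.40 and 1.84 for Pln, and 2.48 and 2.54 for Tafa1. For Sorbs2 it was 2.855 and 3.71, and for Nrip2 only 1.21 and 1.22. At 2000 UMIs, 240 Kif13b-/- cells (43.2%) and 416 WT cells (28.9%) had no UMI of any of the 5 genes, and no cell of either library had all 5.

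Pln, Nrip2 and Sorbs2 tended to be found in the same cells, and Tafa1 in others. Pln and Nrip2 were seen together in 10 Kif13b-/- cells, where 1.89 are expected from the separate shares, and in 68 WT cells, where 26.8 are expected. Observed over expected was therefore 5.29 in the Kif13b-/- and 2.54 in the WT library. Pln and Sorbs2 met at 1.98 times the expected number in the Kif13b-/- and 1.59 times in the WT library, and Hpse2 and Sorbs2 at 2.54 times in Kif13b-/- and 1.55 times in WT. Nrip2 and Tafa1 met in 0 Kif13b-/- cells with 4.16 expected and in 1 WT cell with 23.6 expected. The ratio in the Kif13b-/- and WT libraries was 0.30 and 0.25 for Pln and Tafa1, 0.19 and 0.33 for Hpse2 and Tafa1, and 0.51 and 0.58 for Sorbs2 and Tafa1. For Nrip2 and Hpse2 it was 0.98 in Kif13b-/- cells, on 1 cell with both, and 0.97 in WT cells, on 10, but at 5000 UMIs it was 1.43 in Kif13b-/- and 1.59 in WT cells.

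**Figure D2:**
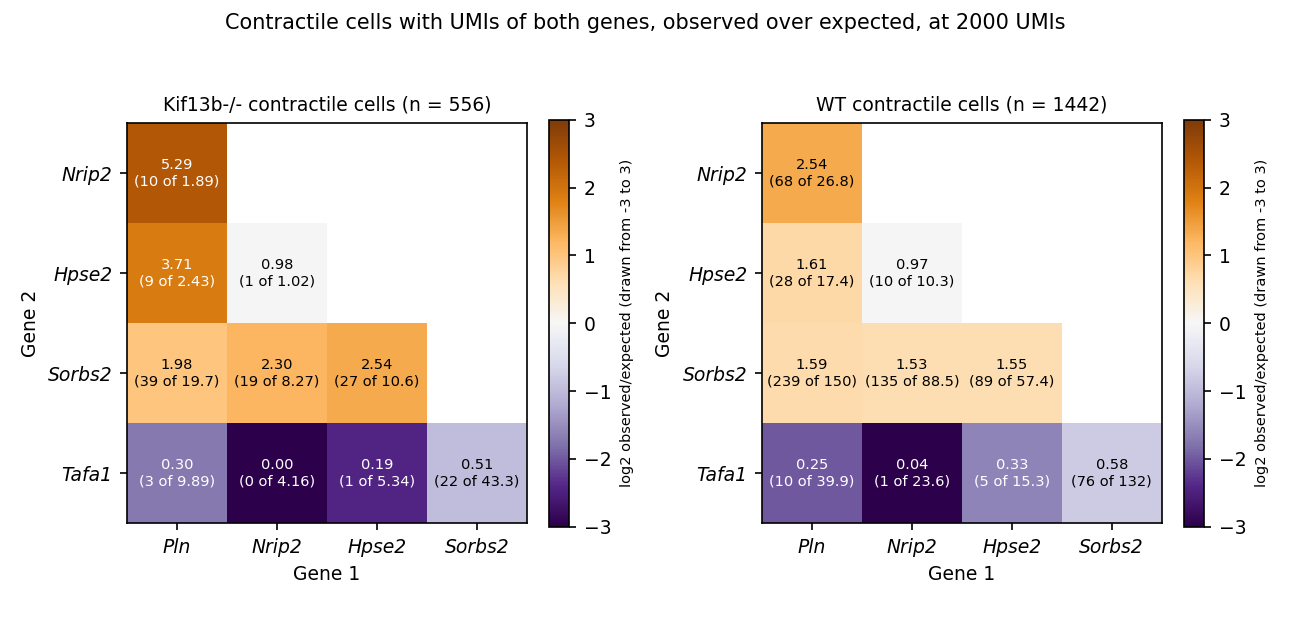
Number of contractile cells with UMIs of both genes of a pair over the number expected from their separate shares, at 2000 UMIs, in Kif13b-/- cells (left, n = 556) and WT cells (right, n = 1442), with observed and expected numbers in brackets and colour on a log2 scale. Pairs among Pln, Nrip2, Hpse2 and Sorbs2 lie between 0.97 and 5.29, and all 4 pairs with Tafa1 lie between 0 and 0.58 in both libraries.

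The 5 genes also followed the amount of contractile transcript. In the tertile of cells with the least Acta2, Tagln and Myh11, Sorbs2 was at 270 CPM in Kif13b-/- and 443 CPM in WT cells, and in the tertile with the most at 1084 CPM in Kif13b-/- and 1988 CPM in WT cells. In Kif13b-/- cells Pln was at 35.6 CPM in the lowest and 89.8 CPM in the highest tertile, and in WT cells at 81.4 and 182 CPM. Hpse2 was at 24.6 CPM in the lowest and 115 CPM in the highest tertile of Kif13b-/- cells, and at 28.5 and 101 CPM in those of WT cells. From the lowest to the highest tertile Tafa1 was at 200, 249 and 115 CPM in Kif13b-/- cells, and at 271, 184 and 56.1 CPM in WT cells. A higher level of the gate genes therefore went with more Sorbs2, Pln and Hpse2 and, at its upper end, with less Tafa1.

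Cells were next split by these genes at 2000 UMIs, a split chosen after the values had been seen. The Tafa1 group, with a UMI of Tafa1 and none of Pln or Nrip2, held 107 Kif13b-/- cells (19.2%, 16.1 to 22.8) and 214 WT cells (14.8%, 13.0 to 16.8). The Pln or Nrip2 group, with either gene and no Tafa1, held 58 Kif13b-/- cells (10.4%) and 328 WT cells (22.7%). Both kinds were seen in 3 Kif13b-/- and 11 WT cells, and neither in 388 Kif13b-/- (69.8%) and 889 WT cells (61.7%). Tafa1 cells thus outnumbered Pln or Nrip2 cells in the Kif13b-/- library, and the reverse held in the WT library. Thinning to 5000 UMIs gave 144 Tafa1 and 97 Pln or Nrip2 cells among 499 Kif13b-/- cells, and 244 and 346 among 1067 WT cells.

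Median mitochondrial share was 7.18% in the Tafa1 and 10.2% in the Pln or Nrip2 group of Kif13b-/- cells, and 5.79% and 7.80% in those of WT cells. Median UMIs were 12866 and 12423 in the Kif13b-/- and 7301 and 6651.5 in the WT groups. The median of the gate sum was 28150 and 33410 CPM in the Kif13b-/- and 27000 and 36550 CPM in the WT groups. Dcn, the fibroblast gene of the gate, was at 42.1 and 51.7 CPM in the Kif13b-/- and at 60.8 and 82.3 CPM in the WT groups, while Rgs5 had 5075 and 3681 CPM in the Kif13b-/- groups, and 3605 and 2892 CPM in the WT groups. The part of these measures in the differences given next was not tested.

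In each library the Tafa1 group was set against the Pln or Nrip2 group, in summed UMIs of the thinned cells. A gene needed 20 UMIs over both groups, and a ratio of 1.5 is the limit for being called higher or lower. In the Kif13b-/- library 22.0% of 2860 genes were higher and 15.9% lower in the Tafa1 group, and in the WT library 19.1% and 16.0% of 6481 genes. Shares of this size are the background for the counts of genes that follow. Of 476 genes higher in WT and tested in both libraries, 289 were also higher in the Kif13b-/- library and 18 lower. Of 360 lower in WT, 193 were lower in the Kif13b-/- library and 21 higher. The cells of the 2 libraries are separate, and the split used only the 3 genes named.

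Genes highest in the Tafa1 group encoded enzymes, secreted proteins and receptors. Fmo2, a flavin-containing monooxygenase, was at 724 CPM in the Tafa1 group and 17.2 CPM in the Pln or Nrip2 group of the Kif13b-/- library, and at 848 and 22.9 CPM in the WT library. Its log2 ratio was 5.08 (3.52 to 8.45) in Kif13b-/- and 5.17 (4.47 to 6.07) in WT cells. Sost, which encodes the secreted Wnt inhibitor sclerostin, was at 500 CPM in Tafa1 and 17.2 CPM in Pln or Nrip2 cells of Kif13b-/- and at 565 and 18.3 CPM in those of WT. In the Pln or Nrip2 group of the Kif13b-/- library both of these genes rested on 2 UMIs.

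Rbp4, the carrier of retinol in blood, was at 276 CPM in the Tafa1 and 25.9 CPM in the Pln or Nrip2 group of the Kif13b-/- library, and at 322 and 9.15 CPM in the WT library. Erbb4, a receptor tyrosine kinase for neuregulins, was at 262 CPM in Tafa1 and 8.62 CPM in Pln or Nrip2 cells of Kif13b-/- and at 381 and 21.3 CPM in those of WT. Gabra3, a subunit of the GABA-A receptor, was at 173 CPM in Tafa1 and 25.9 CPM in Pln or Nrip2 cells of Kif13b-/- and at 180 and 3.05 CPM in those of WT. Gata6, a transcription factor of vascular muscle, stood at 187 CPM in Tafa1 and 8.62 CPM in Pln or Nrip2 cells of Kif13b-/- and at 189 and 18.3 CPM in those of WT. In the Pln or Nrip2 group of the Kif13b-/- library Rbp4 and Gabra3 rested on 3 UMIs each. A level of 8.62 CPM there, as for Erbb4 and Gata6, is 1 UMI. Rgs7, Sema3d, Lgr6 and Mfap5 were at 27, 29, 21 and 26 UMIs in the Tafa1 group of the Kif13b-/- library and at 0 in the other group. Of the 15 genes with the highest WT ratios, 14 were also higher in the Kif13b-/- library, and the remaining one, Bmpr1b, had too few UMIs there.

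Elastic fibre genes were mostly higher in the Tafa1 group. Of the elastic fibre genes, 8 of 12 tested were higher in the Tafa1 group of the Kif13b-/- library and 10 of 13 in the WT library, 7 of them in both, and 0 were lower in either. The list median of the log2 ratio was 0.90 and 0.95, beside 0.05 and 0.05 over all genes tested. Fbln5, which encodes the elastic fibre assembly protein fibulin 5, was at 332 CPM in the Tafa1 and 77.6 CPM in the Pln or Nrip2 group of the Kif13b-/- library, and at 318 and 68.6 CPM in the WT library. Mfap4, a microfibril-associated protein, was at 285 CPM in Tafa1 and 8.62 CPM in Pln or Nrip2 cells of Kif13b-/- and at 213 and 18.3 CPM in those of WT. The level of 8.62 CPM is 1 UMI. Eln, which encodes elastin, was at 1014 CPM in Tafa1 and 871 CPM in Pln or Nrip2 cells of Kif13b-/- and at 1276 and 750 CPM in those of WT, where alone it reached the ratio. Basement membrane and heparan sulphate genes went both ways, with 8 higher and 7 lower of 28 in the Kif13b-/- library and 11 and 7 of 34 in the WT library. In both libraries 8 were higher, Col15a1 and Npnt among them, and Col4a1, Nid1, Hpse2 and Itga7 were lower.

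Of the modulation genes, 9 of 14 were higher and 2 lower in the Tafa1 group of the Kif13b-/- library, and 11 of 18 and 3 in the WT library. The 8 higher in both were Vcam1, Lum, Mgp, Fn1, Col1a1, Col1a2, Col3a1 and Ccn2, and Col8a1 and Thbs1 were lower in both. Mgp, an inhibitor of calcification, was at 7369 and 3017 CPM in the Tafa1 and Pln or Nrip2 groups of the Kif13b-/- library and at 6755 and 2107 CPM in the WT library. Col3a1, a fibrillar collagen, was at 1467 CPM in Tafa1 and 534 CPM in Pln or Nrip2 cells of Kif13b-/- and at 1970 and 773 CPM in those of WT, and Fn1 (fibronectin) at 3210 CPM in Tafa1 and 1819 CPM in Pln or Nrip2 cells of Kif13b-/- and at 2514 and 970 CPM in those of WT. Thbs1, which encodes thrombospondin 1, was lower, at 56.1 CPM in Tafa1 and 733 CPM in Pln or Nrip2 cells of Kif13b-/- and at 138 and 837 CPM in those of WT. The transcription factor gene Tbx18 was at 112 CPM in Tafa1 and 25.9 CPM in Pln or Nrip2 cells of Kif13b-/- and at 124 and 22.9 CPM in those of WT.

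Some contractile and signalling genes were lower in the Tafa1 group. Of the contractile apparatus list, 10 of 33 genes were lower and 3 higher in the Tafa1 group of the Kif13b-/- library, and 12 of 33 and 2 in the WT library. In both libraries 9 were lower: Myl9, Mylk, Tpm1, Tpm2, Actg2, Des, Synm, Csrp1 and Sorbs2. Des, the intermediate filament protein desmin, was at 164 CPM in the Tafa1 and 457 CPM in the Pln or Nrip2 group of Kif13b-/- cells, and at 77.1 and 325 CPM in WT cells. Tpm2, a tropomyosin, was at 3654 CPM in Tafa1 and 7172 CPM in Pln or Nrip2 cells of Kif13b-/- and at 3079 and 6681 CPM in those of WT, and Mylk, the myosin light chain kinase, at 1304 CPM in Tafa1 and 2422 CPM in Pln or Nrip2 cells of Kif13b-/- and at 1381 and 2628 CPM in those of WT. Acta2 was at 14206 CPM in Tafa1 and 14172 CPM in Pln or Nrip2 cells of Kif13b-/- and at 13589 and 15377 CPM in those of WT, and Cnn1 at 1042 CPM in Tafa1 and 836 CPM in Pln or Nrip2 cells of Kif13b-/- and at 956 and 974 CPM in those of WT. Neither gene reached the ratio. Itga8, the integrin alpha 8 subunit, ran against the list, at 1790 CPM in Tafa1 and 776 CPM in Pln or Nrip2 cells of Kif13b-/- and at 2192 and 774 CPM in those of WT. Myocd itself was higher in the Tafa1 group, at 528 CPM in Tafa1 and 319 CPM in Pln or Nrip2 cells of Kif13b-/- and at 477 and 317 CPM in those of WT.

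Several Notch genes were lower in the Tafa1 group. Notch3, the Notch receptor of arterial smooth muscle, was at 51.4 CPM in the Tafa1 and 414 CPM in the Pln or Nrip2 group of the Kif13b-/- library, and at 32.7 and 421 CPM in the WT library. The log2 ratio was -2.96 (-4.10 to -2.04) and -3.64 (-4.58 to -2.91). The ligand gene Jag1 was at 56.1 CPM in Tafa1 and 172 CPM in Pln or Nrip2 cells of Kif13b-/- and at 56.1 and 178 CPM in those of WT, and the target gene Hes1 at 154 CPM in Tafa1 and 267 CPM in Pln or Nrip2 cells of Kif13b-/- and at 166 and 396 CPM in those of WT. Of the list, 3 of 7 genes were lower in the Tafa1 group of the Kif13b-/- library and 7 of 10 in the WT library, and 1 (Maml2) was higher in both.

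Several receptor genes were lower in the Tafa1 group. Ednra, the endothelin A receptor, was at 18.7 CPM in the Tafa1 and 147 CPM in the Pln or Nrip2 group of Kif13b-/- cells and at 11.7 and 139 CPM in WT cells. S1pr3, a sphingosine phosphate receptor, was at 4.67 CPM in Tafa1 and 129 CPM in Pln or Nrip2 cells of Kif13b-/- and at 2.34 and 187.5 CPM in those of WT. Kcna5, a voltage-gated potassium channel, was at 9.35 CPM in the Tafa1 and 112 CPM in the other group of Kif13b-/- cells, and in WT cells at 0 UMIs in the Tafa1 group and 76.2 CPM in the other. S1pr3 and Kcna5 had fewer than 20 UMIs over the Kif13b-/- groups and were not called there. Of the receptor and cyclic GMP list, 8 of 15 were lower and 1 higher in the Tafa1 group of the Kif13b-/- library, and 10 of 23 and 6 in the WT library. In both libraries 7 were lower, Ednra among them, whereas the phosphodiesterase gene Pde4d was lower in the Kif13b-/- and higher in the WT library. Potassium and chloride channels were higher in 1 and lower in 0 of 5 in the Kif13b-/- library and higher in 3 and lower in 5 of 13 in the WT library, with Abcc9 higher in both. Calcium handling genes were lower in 4 of 15 and 7 of 22 and higher in 0 and 1. Of the 15 genes with the lowest WT ratios, 11 had fewer than 20 UMIs in the Kif13b-/- library, and the other 4 (Il6, Adamtsl1, Rasd1 and Notch3) were lower there too.

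Immediate early genes, which respond quickly to growth factors and to handling of cells, were often lower in the Tafa1 group. In the Kif13b-/- library 10 of 21 were lower and 1 higher, and in the WT library 18 of 23 and 0, with 9 lower in both. Junb was at 537 CPM in the Tafa1 and 1112 CPM in the Pln or Nrip2 group of the Kif13b-/- library, and at 383 and 1285 CPM in the WT library. Nuclear respiratory chain genes were lower in 8 of 27 and 12 of 30. The medians of the 13 mitochondrially encoded transcripts were -0.42 and -0.40 in the Kif13b-/- and WT libraries.

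**Figure D3:**
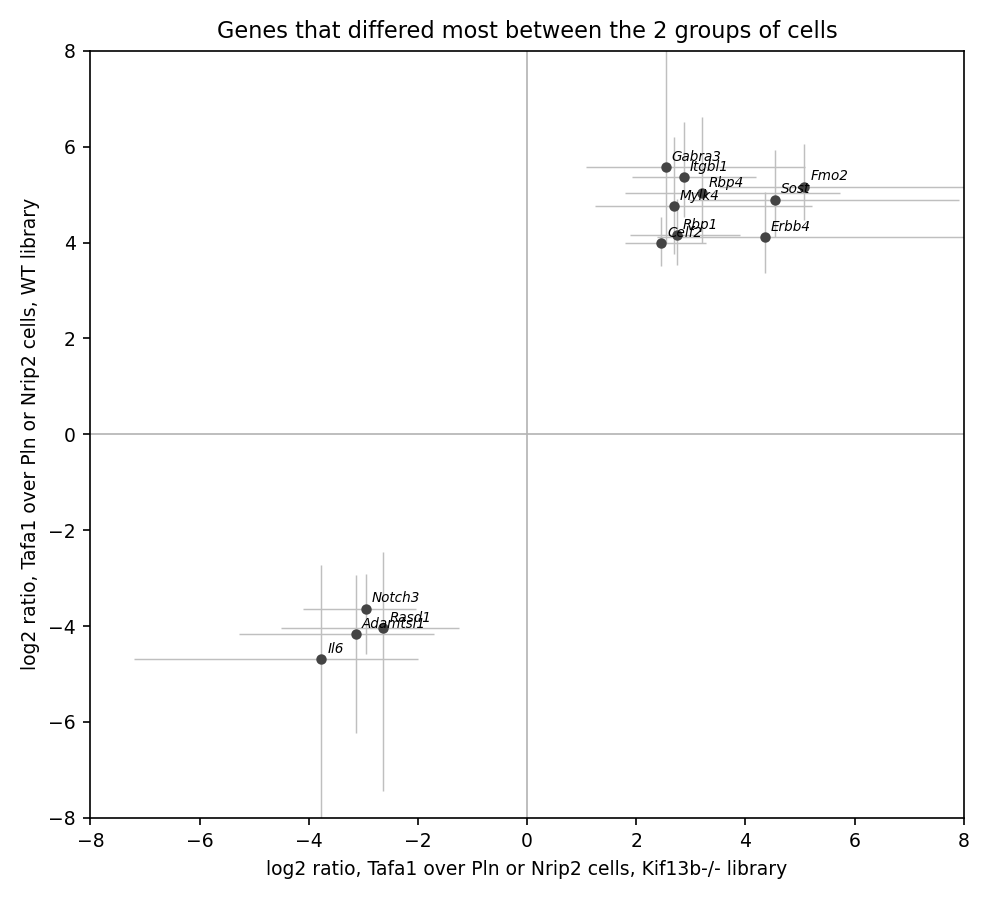
Log2 ratio of the Tafa1 over the Pln or Nrip2 group in the Kif13b-/- library (horizontal axis) and in the WT library (vertical axis) for 13 of the genes with the largest WT ratios that were tested in both libraries, with 95% counting intervals. Genes at 0 UMIs in a group are not drawn, and the 9 genes above 0 on one axis and the 4 below it lie on the same side on the other.

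Cells were also split by Pln alone, which overlaps the split above. Of 6605 genes tested in the Kif13b-/- library 17.2% were higher and 27.5% lower in cells with a Pln UMI than in cells without, and of 9352 in the WT library 10.5% and 19.5%. Of the 10 genes highest with Pln in WT, 6 were also higher in the Kif13b-/- library, and of the 10 lowest, 10 were lower there. The rest of the highest genes had fewer than 20 UMIs in the Kif13b-/- library and could not be called. Their log2 ratios there ran from 0.71 to 3.34. Adamts4, a protease that cleaves proteoglycans, was at 97.7 CPM with and 20.2 CPM without Pln in WT cells. Wnt16, a Wnt ligand, was at 0 UMIs with and 60.7 CPM without Pln in WT cells.

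Hpse2 cells were fewer. At 2000 UMIs there were 27 in the Kif13b-/- and 98 in the WT library. Prkg2, a cyclic GMP-dependent protein kinase, was at 74.1 CPM in cells with and 7.56 CPM in cells without a Hpse2 UMI in the Kif13b-/- library, and at 179 and 10.8 CPM in the WT library. Ednrb, the endothelin B receptor, was at 55.6 CPM with and 10.4 CPM without Hpse2 in Kif13b-/- cells and at 96.9 and 14.9 CPM in WT cells, and the transcription factor gene Nkx6-1 at 92.6 CPM with and 18.9 CPM without Hpse2 in Kif13b-/- cells and at 102 and 17.9 CPM in WT cells. The Kif13b-/- values rest on 3 to 5 UMIs in the Hpse2 cells. Fmo2 was at 37.0 CPM with and 454 CPM without Hpse2 in Kif13b-/- cells and at 5.10 and 413 CPM in WT cells. Across all genes, 21.0% were higher and 33.3% lower with Hpse2 in the Kif13b-/- library, and 14.4% and 27.5% in the WT library.

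The genotypes were then compared within the contractile cells, in summed UMIs over all of them. The levels of Pln were 59.2 CPM (53.6 to 65.3, 406 UMIs) in Kif13b-/- and 133 CPM (126 to 140, 1347 UMIs) in WT cells, a log2 ratio of -1.17 (-1.33 to -1.01). Nrip2 was at 24.4 CPM (20.8 to 28.3) in Kif13b-/- and 53.4 CPM (49.0 to 58.1) in WT cells, with -1.13 (-1.39 to -0.88). Sorbs2 was at 546 CPM (529 to 564) in Kif13b-/- and 1094 CPM (1074 to 1115) in WT cells, and the interval of its log2 ratio ran from -1.06 to -0.95. Hpse2 was at 56.6 CPM (51.1 to 62.5) in Kif13b-/- and 72.9 CPM (67.7 to 78.3) in WT cells, with -0.36 (-0.55 to -0.19). Tafa1 was at 189 CPM (179 to 199) in Kif13b-/- and 170 CPM (162 to 178) in WT cells, with 0.15 (0.05 to 0.26). The first 3 genes were lower in Kif13b-/- cells by more than the ratio of 1.5, and the other 2 were not beyond it. They were chosen with these values known, so this is a description.

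Matching depth moved these ratios in different ways. With each cell thinned to 2000 UMIs they were -1.02 for Pln, -1.51 for Nrip2, -1.11 for Sorbs2, -0.66 for Hpse2 and 0.34 for Tafa1. Weighting UMI bins alike, with cells of 16000 or more UMIs left out, gave -0.72, -0.73, -0.81, 0.16 and 0.05. With those cells kept the same 5 ratios were -0.27, -0.29, -0.53, -0.18 and -0.20, but 10 WT cells then stood for 38.6% of the weight. At that depth Pln was at 44.6 CPM and Nrip2 at 16.6 CPM in 132 Kif13b-/- cells, and Pln at 5.49 CPM and Nrip2 at 0 in the 10 WT cells. Sorbs2 alone of the 5 was below -0.5 in all 14 settings run, from -1.33 to -0.53.

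**Figure D4:**
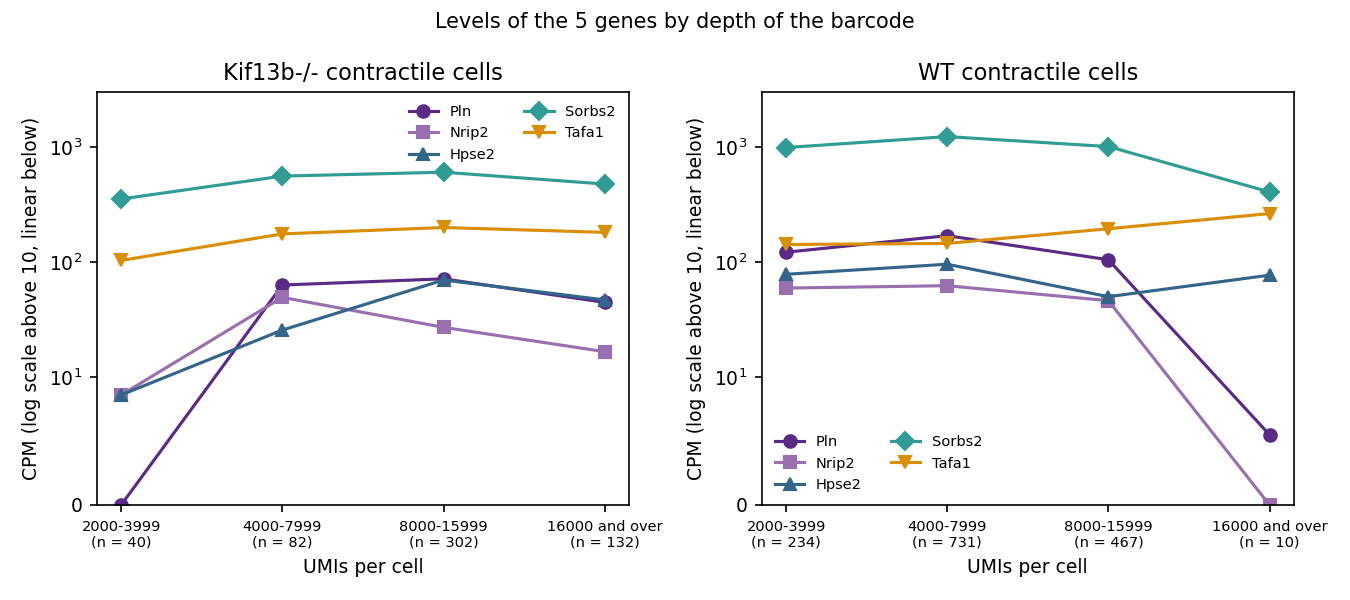
Level of the 5 genes (vertical axis, CPM, log scale above 10 and linear below) in contractile cells by UMIs per cell, in the Kif13b-/- library (left) and the WT library (right), with the number of cells under each bin. Pln in the bin that starts at 8000 UMIs was at 71.4 CPM in Kif13b-/- and 105 CPM in WT cells, and the last WT bin holds 10 cells.

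The limit on mitochondrial share also changed the values. Keeping only cells with at most 10% mitochondrial UMIs left 392 Kif13b-/- and 1130 WT contractile cells, and the ratio of Pln was then -1.47 and that of Nrip2 -1.72. The share of barcodes that were contractile cells was 11.0% in the Kif13b-/- and 11.9% in the WT library under this limit, against 9.49% and 13.1% without it. Within the groups defined above, Sorbs2 was lower in Kif13b-/- cells in each: 1552 CPM in Kif13b-/- against 2316 CPM in WT cells of the Pln or Nrip2 group (log2 ratio -0.57, -0.81 to -0.35) and 159 CPM in Kif13b-/- against 266 CPM in WT cells of the Tafa1 group (-0.73, -1.34 to -0.18). Notch3 had 414 and 421 CPM in the Pln or Nrip2 groups of the Kif13b-/- and WT libraries, a log2 ratio of -0.01 (-0.50 to 0.42).

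Across all genes, 13107 had 20 or more UMIs over both libraries. Of these, 801 (6.11%) were higher and 634 (4.84%) lower in Kif13b-/- contractile cells by a ratio of 1.5 or more, 10.9% in either direction. The median log2 ratio was 0.003. Requiring 50 UMIs left 414 (3.66%) and 332 (2.93%) of 11314 genes, and a ratio of 2 left 228 and 225. Kif13b itself was at 47.2 CPM (42.2 to 52.7) in Kif13b-/- and 55.5 CPM (51.0 to 60.3) in WT contractile cells, a log2 ratio of -0.23 (-0.43 to -0.03), and of -1.04 at a contractile gate of 40000 CPM. Over all barcodes Kif13b was at 43.6 CPM (42.0 to 45.2) in the Kif13b-/- and 69.3 CPM (67.6 to 71.0) in the WT library. Reads from 3' ends may lie outside the altered part of Kif13b, and whether these levels bear on the label was not tested. Mertk, the receptor of the study's question, was at 155 CPM (145 to 164) in Kif13b-/- and 160 CPM (152 to 168) in WT cells, a log2 ratio of -0.05 (-0.16 to 0.07).

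Of the 1605 genes eligible to be named, the 12 with the highest ratios included 2 matricellular CCN genes and a stretch-induced gene. Ankrd1, a nuclear and sarcomeric protein induced by stretch, was at 52.9 CPM (47.6 to 58.7) in Kif13b-/- and 23.3 CPM (20.4 to 26.5) in WT cells, a log2 ratio of 1.18. The matricellular protein gene Ccn1 was at 980 CPM (956 to 1003) in Kif13b-/- and 532 CPM (518 to 547) in WT cells, with 0.88 (0.83 to 0.93), and Ccn5, of the same family, at 103 CPM in Kif13b-/- and 59.2 CPM in WT cells. Igfbp2, which binds insulin-like growth factors, was at 173 CPM (163 to 183) in Kif13b-/- and 88.3 CPM (82.6 to 94.3) in WT cells, with 0.97. Meg3, an imprinted long noncoding RNA, was at 107 CPM in Kif13b-/- and 52.7 CPM in WT cells. Between 0.71 and 1.01 in the 14 settings, Ccn1 had the narrowest range of the 12. It was higher in Kif13b-/- cells of the Pln or Nrip2 group (828 CPM, against 459 CPM in WT cells) and of the Tafa1 group (972 CPM, against 514 CPM in WT cells), with 0.86 and 0.92.

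Most Igfbp2 UMIs of the thinned cells lay in cells with none of Pln, Nrip2 and Tafa1. Such cells made up 69.8% of Kif13b-/- and 61.7% of WT contractile cells, so most UMIs of many genes lie there. In them Igfbp2 had 251 CPM in Kif13b-/- (195 UMIs) and 97.3 CPM in WT cells (173 UMIs), a log2 ratio of 1.37 (1.07 to 1.67). In the Pln or Nrip2 group Igfbp2 had 164 CPM in the Kif13b-/- library (19 UMIs) and 9.15 CPM in the WT library (6 UMIs). In the Tafa1 groups it had 74.8 CPM in Kif13b-/- and 56.1 CPM in WT cells, a log2 ratio of 0.43 (-0.60 to 1.39). Further genes of the 12 were Dnah12 (an axonemal dynein, 50.3 CPM in Kif13b-/-, 24.9 CPM in WT cells), Epha7 (an ephrin receptor, 65.5 CPM in Kif13b-/-, 33.5 CPM in WT cells), Lsmem1 (180 CPM in Kif13b-/-, 98.3 CPM in WT cells), Tango6 (53.7 CPM in Kif13b-/-, 30.2 CPM in WT cells), Polg2 (a subunit of the mitochondrial DNA polymerase, 66.4 CPM in Kif13b-/-, 39.1 CPM in WT cells) and Gipc2 (84.0 CPM in Kif13b-/-, 49.8 CPM in WT cells). Depth matched in bins below 16000 UMIs left log2 ratios of 0.08 for Dnah12, 0.32 for Ankrd1 and 0.39 for Igfbp2, and 0.76 for Ccn1 and 0.94 for Meg3. With all bins weighted Meg3 was at -0.09. After thinning Tango6 was at 0.32 and Polg2 at 0.43, below the ratio. Over the 14 settings Epha7 ran from 0.12 to 1.33 and Gipc2 from 0.007 to 0.83. Lsmem1 ran from -0.69 to 1.02 and Ccn5 from 0.37 to 0.99.

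Besides Pln, Nrip2 and Sorbs2, the 12 lowest genes were Ide, Bc1, Gja4, Rgs6, Aspn, Notch3, Dgkb, Ntn4 and Agtr1b. Ide, the insulin-degrading enzyme, was at 38.1 CPM (33.6 to 43.0) in Kif13b-/- and 77.2 CPM (71.9 to 82.8) in WT cells, a log2 ratio of -1.02 (-1.23 to -0.82). Its ratio lay between -1.19 and -0.96 in every one of the 14 settings, the narrowest range among the 12. Aspn, the matrix protein asporin, was at 169 CPM in Kif13b-/- and 323 CPM in WT cells, and Dgkb, a diacylglycerol kinase, at 276 CPM in Kif13b-/- and 486 CPM in WT cells. Notch3 was at 102 CPM (94.4 to 110) in Kif13b-/- and 180 CPM (172 to 188) in WT cells, with -0.82 (-0.95 to -0.69), or -0.54 after thinning and -0.45 in bins below 16000 UMIs. Gja4, the gap junction protein connexin 37, was at 34.7 CPM in Kif13b-/- and 67.0 CPM in WT cells, Ntn4 (netrin 4) at 73.5 CPM in Kif13b-/- and 128 CPM in WT cells, and Agtr1b, an angiotensin II receptor, at 32.8 CPM in Kif13b-/- and 56.4 CPM in WT cells. The ratio of Agtr1b was -0.78, and -0.38 after thinning, which is not beyond 1.5. Rgs6, a regulator of G-protein signalling, was at 27.0 CPM in Kif13b-/- and 52.0 CPM in WT cells, and the small noncoding RNA Bc1 at 41.7 CPM in Kif13b-/- and 82.9 CPM in WT cells. Over the 14 settings Rgs6 ran from -1.52 to -0.15, Dgkb from -0.92 to -0.27 and Gja4 from -1.20 to -0.43. Ntn4 ran from -0.83 to -0.38, Aspn from -1.05 to -0.51 and Bc1 from -1.21 to -0.80. Rgs6, Notch3 and Gja4 were also among the 15 genes lowest in the Tafa1 group of the WT library.

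**Figure D5:**
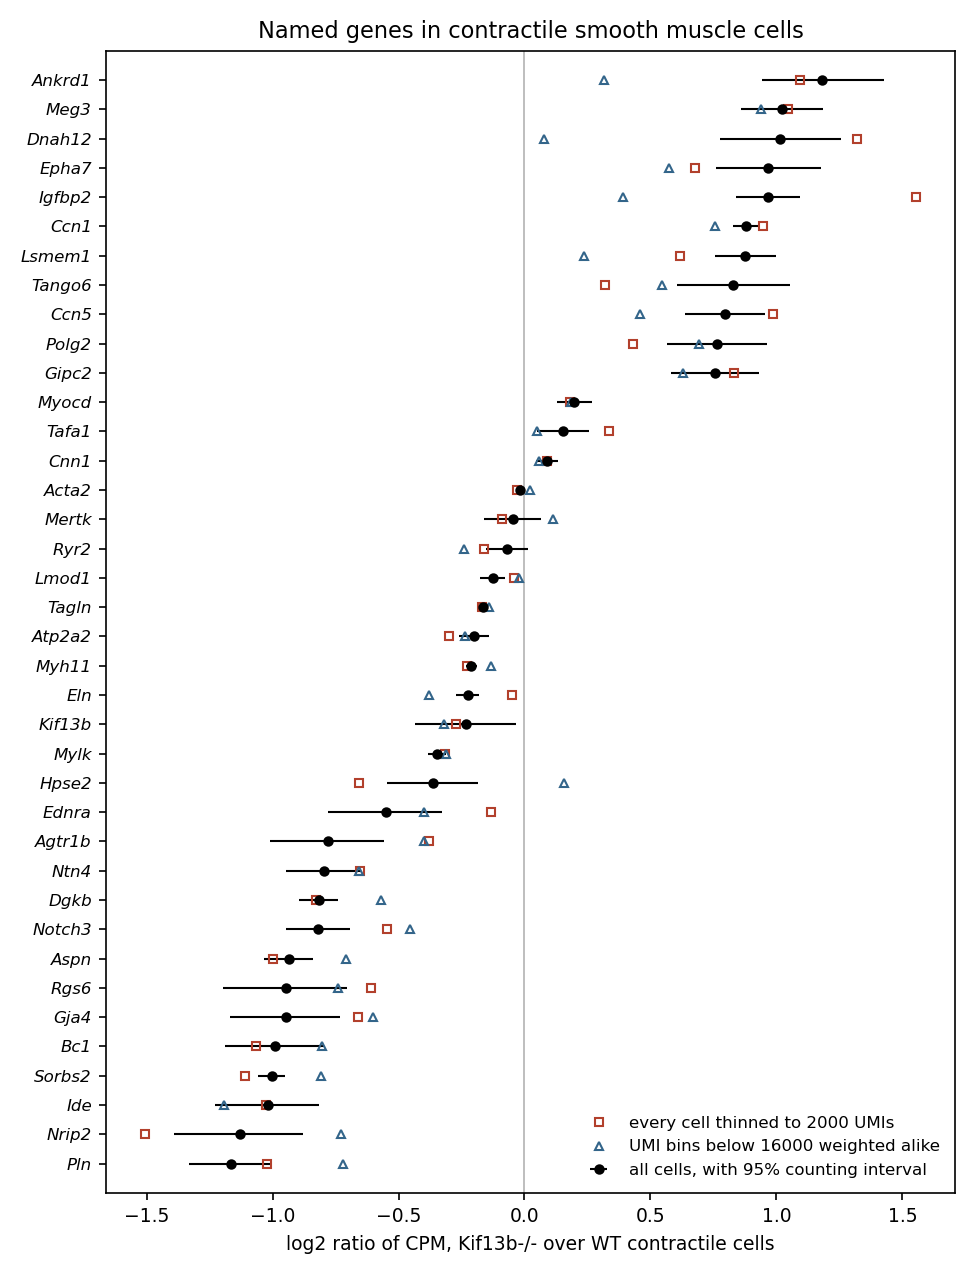
Log2 ratio of CPM in Kif13b-/- over WT contractile cells for the named genes, over all cells with the 95% counting interval (black), with cells thinned to 2000 UMIs (red squares) and with UMI bins below 16000 weighted alike (blue triangles). Ide lies at -1.02 and Ccn1 at 0.88 with the other symbols near them, whereas Ankrd1 moves to 0.32 and Hpse2 from -0.36 to 0.16 in weighted bins.

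Members of the gene lists are given next. Of the 24 list genes called higher in Kif13b-/- cells 17 stayed beyond the ratio on the same side after thinning to 2000 UMIs, and of the 34 called lower 16 did, and the calls given here are those over all UMIs. Few contractile genes differed by the ratio. Of the 34 genes of the contractile apparatus, only Sorbs2 was beyond the ratio, and the list median was -0.10, or 0.03 in weighted bins below 16000 UMIs. Mylk was at 1438 CPM (1410 to 1466) in Kif13b-/- and 1827 CPM (1801 to 1854) in WT cells, with -0.35. Of 21 regulators around SRF and myocardin only Nrip2 was beyond it, and Myocd had a log2 ratio of 0.20 (0.13 to 0.27). Calcium handling genes were lower in 5 of 32 and higher in 1, with a median of -0.15, and the lower ones besides Pln were Ryr3, Cacna1g, Cacna1h and Trpc6. After thinning Ryr3 was at -0.44, Cacna1g at -0.27 and Trpc6 at -0.15, none beyond the ratio. Cacna1h, a T-type calcium channel, was at 8.46 CPM in Kif13b-/- and 18.2 CPM in WT cells. Atp2a2, the calcium pump that phospholamban holds back, was at 521 CPM in Kif13b-/- and 598 CPM in WT cells, with -0.20 (-0.26 to -0.14), and the ryanodine receptor gene Ryr2 at 292 CPM in Kif13b-/- and 306 CPM in WT cells. Notch genes were lower in 3 of 12 (Notch3, Nrarp and Jag2) with a median of -0.19. After thinning none of the 3 was beyond the ratio, with -0.54 for Notch3, -0.41 for Nrarp and 0.64 for Jag2, which rests on 6 UMIs in Kif13b-/- and 18 UMIs in WT cells.

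Elastic fibre genes had a list median of 0.35, with 2 of 18 beyond the ratio. Efemp2, the assembly protein fibulin 4, was at 67.8 CPM in Kif13b-/- and 42.8 CPM in WT cells and Ltbp2, a latent TGF-beta-binding protein, at 24.9 CPM in Kif13b-/- and 14.5 CPM in WT cells. Eln was at 936 CPM in Kif13b-/- and 1095 CPM in WT cells, with -0.23 (-0.27 to -0.18), on the other side of 0 from the median. The ratio of Eln differed between ways of matching depth. It was -0.05 after thinning, -0.38 in bins below 16000 UMIs weighted alike and -1.34 with all bins weighted. In the last of these 10 WT cells stood for 38.6% of the weight. After thinning Efemp2 was at 0.59, and Ltbp2 at 0.51 was no longer beyond the ratio. The list median was 0.03 when UMI bins below 16000 were weighted alike.

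Genes of modulation and inflammation were found on both sides. Of 26 modulation genes, 4 were higher (Vcam1, Timp1, Ccn1 and Grem1) and 3 lower (Col8a1, Prg4 and Ibsp). Vcam1, a leukocyte adhesion molecule, was at 234 CPM in Kif13b-/- and 115 CPM in WT cells, and Timp1, a metalloproteinase inhibitor, at 130.5 CPM in Kif13b-/- and 48.2 CPM in WT cells, with log2 ratios of 1.03 and 1.44, or 0.91 and 0.62 after thinning. Of 22 inflammatory genes, Cxcl10, Vcam1 and C3 were higher and Ccl11 lower. Cxcl10, an interferon-induced chemokine, was at 40.7 CPM (279 UMIs) in Kif13b-/- and 4.15 CPM (42 UMIs) in WT cells, a log2 ratio of 3.28 (2.82 to 3.80), while of the 18 interferon genes only Oasl2 was beyond the ratio, on 19 and 17 UMIs. C3, a complement component, was at 52.1 CPM in Kif13b-/- and 20.1 CPM in WT cells. Macrophage markers summed to 88.1 CPM in Kif13b-/- and 45.3 CPM in WT contractile cells, and their part in these values was not tested.

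Cartilage genes were lower in 4 of 13 and higher in 2, with a median of -0.28. Of the lower genes, Col11a1 and Chad rested on 1 and 3 UMIs in Kif13b-/- and 21 and 22 UMIs in WT cells, and Col11a2 turned to 0.53 after thinning. Col2a1, the collagen of cartilage, was at 2.77 CPM (19 UMIs) in Kif13b-/- and 16.3 CPM (165 UMIs) in WT cells, and the chondrocyte markers summed to 50.5 CPM in Kif13b-/- and 59.9 CPM in WT cells. Immediate early genes were higher in 3 of 25 (Jun, Egr2 and Ccn1) with a median of 0.16, or -0.10 in weighted bins below 16000 UMIs, and heat shock genes in 2 of 17, with Hspa1b at 677 CPM in Kif13b-/- and 428 CPM in WT cells. Mitochondrially encoded transcripts had a median of 0.20, and mt-Nd3, a subunit of complex I, was at 1958 CPM in Kif13b-/- and 1121 CPM in WT cells. Growth factor genes were higher in 1 (Igfbp2) and lower in 3 of 24, of which Igfbp4 was at 253 CPM in Kif13b-/- and 395 CPM in WT cells and Angpt1 at 16.9 CPM in Kif13b-/- and 29.8 CPM in WT cells. Tgfb3 was at 136.5 CPM in Kif13b-/- and 221.5 CPM in WT cells, with -0.70, and 2 of 29 TGF-beta and BMP genes were lower and 1 higher.

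Efferocytosis genes held 1 of 24 beyond the ratio, C3, with a median of 0.08, or -0.01 after thinning. Cholesterol genes were beyond it in 1 each way of 25, kinesin motors were higher in 2 of 21, glycolysis genes in 1 of 17, Hox genes were lower in 2 of 27, potassium and chloride channels in 2 of 15, basement membrane genes in 2 of 38, circadian genes in 1 of 17 and proliferation genes in 1 of 13. Vasoactive receptor and cyclic GMP genes were lower in 2 of 33 and higher in 1, with Npr3, a natriuretic peptide receptor, at 13.9 CPM in Kif13b-/- and 8.10 CPM in WT cells. The 9 caveolin and cavin genes and the 31 nuclear respiratory chain genes had none beyond the ratio. Over all genes 6.11% were higher and 4.84% lower.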

How the data were processed

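Filtered UMI count matrices of 1 Kif13b-/- and 1 WT aorta library, as the authors deposited them, were the input. Per the labels' protocols about 6000 cells were loaded per library with 3' v3.1 chemistry and about 3000 targeted. Per the file headers the counts came from Cell Ranger 8.0.1, and per the submitters' processing notes the build was mm10. Nothing in the sources used here says how reads of overlapping genes were counted. Of 33696 features 31961 matched GENCODE M21 by identifier. No per-sample column was left unused (0).

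Contractile cells were those described in the report. The cells, the 5 genes along which they were described, 26 gene lists and 15 marker lists were chosen with earlier results of these data known. UMIs were summed per library and divided by their total. A count of 0.5 was added to each gene before log2 ratios were taken. Intervals at 95% are exact Poisson for levels, exact conditional binomial for ratios and Clopper-Pearson for shares, and cover counting error only. With 1 library per genotype no p-value was computed. Thinning drew UMIs without replacement with seed 1. Genes were named by the 12 highest and 12 lowest ratios among those reaching 50 CPM in either library and 50 UMIs in all, with an interval that excludes 0 and no other gated type above 10 times the level. Ribosomal, mitochondrial, haemoglobin, immune receptor, sex-linked and Gm or Rik genes were left out. Certain genes were named whatever their values, and list members beyond the ratio were named after their values were seen. Of genes named beside the Tafa1 split, the 15 highest and 15 lowest WT ratios at 50 UMIs or more were taken. Some genes that these rules name are not reported here, though the counts include them.

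Comparison types were gated alike, with the other gates low: fibroblasts at 10000 CPM of Dcn and Lum, macrophages at 5000 CPM of C1q genes and endothelial cells at 1000 CPM of Pecam1, Cdh5 and Kdr. Modulated stromal cells had 1000 CPM of Crabp2, Cst6 and Grem1, were below the contractile and C1q limits, and had no limit on Dcn and Lum. Doublets were scored with Scrublet in scanpy 1.11.5. Its threshold marked 2 Kif13b-/- and 0 WT barcodes and so had not worked, and doublets were kept except in 1 alternative. Ratios and intervals were tested on simulated Poisson counts, the model that the intervals assume. That test does not cover variation between cells beyond counting error. Calculations used Python 3.11.15, numpy 2.4.6, scipy 1.17.1 and pandas 2.3.3. Promoter sequences are from RefSeq on GRCm38.p6.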

Additional observations from a re-analysis of the deposited data

How the results depend on the processing

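No paired analysis was possible because each genotype has 1 library. Shares of contractile cells depend on the gate. In the Kif13b-/- and WT libraries they were 8.49% and 9.53% at a minimum of 1000 UMIs, 12.2% and 21.2% at 5000 UMIs, 11.0% and 11.9% at 10% mitochondrial UMIs, 12.4% and 17.4% at 10000 CPM, 1.52% and 3.17% at 40000 CPM and 7.99% and 11.4% with stricter limits on Dcn, Lum and C1q. Without the 5% deepest cells the WT share was 12.4%. The Kif13b-/- share was below the WT share in every one of the 8 settings.

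Ratios of the 5 genes beyond their counting interval were as follows. At 10% mitochondrial UMIs, Pln was -1.47, Nrip2 -1.72, Hpse2 -0.96 and Sorbs2 -1.33. Tafa1 was 0.015 at 10000 CPM, and at 40000 CPM Pln was -0.98, Sorbs2 -0.66 and Tafa1 0.39. Tafa1 was 0.31 without the deepest cells. Thinned to 2000 UMIs, Nrip2 was -1.51, Hpse2 -0.66, Sorbs2 -1.11 and Tafa1 0.34. UMI bins weighted alike gave -0.27 for Pln, -0.29 for Nrip2, -0.18 for Hpse2, -0.53 for Sorbs2 and, reversed, -0.20 for Tafa1. Without the bin from 16000 UMIs, a setting chosen after seeing the data, they were -0.72, -0.73, 0.16 for Hpse2 (reversed), -0.81 and 0.05. Weighting the marker groups alike, also chosen later, gave 0.079 for Pln and -0.013 for Tafa1 (both reversed), -0.39 for Nrip2 and -0.83 for Sorbs2. Pln, Nrip2 and Tafa1 define these groups, so their values in this setting are partly set by construction.

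The counts of 801 higher and 634 lower genes became 2196 and 1068 with all UMI bins weighted, 414 and 332 at 50 UMIs per gene and 228 and 225 at a ratio of 2. Without the bin from 16000 UMIs they were 814 and 727. The cause of these shifts was not tested, except that a higher minimum and ratio leave fewer genes by construction. Among other named genes Acta2, near 0, turned to 0.035 at 40000 CPM, 0.098 and 0.020 in weighted bins with and without the deepest, and 0.0066 with another denominator. Lmod1 turned to 0.059 and Lsmem1 to -0.69 at 40000 CPM, Meg3 to -0.094 in all weighted bins and Ednra to 0.32 with marker groups alike. Thinning to 5000 UMIs kept the shares of genes that differed between marker groups within 1.5 times.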

Other observations

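Efferocytosis genes, which serve the uptake of dying cells, were also set out by marker group of the contractile cells. In the Tafa1 group 4 of 14 were higher and 2 lower in the Kif13b-/- library, where 22.0% and 15.9% of all genes tested were. In the WT library 8 of 20 were higher and 2 lower, where 19.1% and 16.0% of all genes tested were. Itgb5, an integrin subunit, was the only gene of the list higher in both libraries, and Mfge8 and Thbs1 were lower in both. Mfge8, which bridges dying cells to engulfing cells, was at 701 CPM in the Tafa1 and 1198 CPM in the Pln or Nrip2 group of Kif13b-/- cells, and at 607 and 1120 CPM in WT cells. The bridging ligand Gas6 was at 220 and 181 CPM in Kif13b-/- cells and at 264 and 133 CPM in WT cells, and reached the ratio of 1.5 in WT cells alone. Mertk, a receptor for Gas6, was at 145 and 164 CPM in Kif13b-/- and at 168 and 184 CPM in WT cells, below the ratio in both.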
